A study of Mus musculus with 6 samples.

Results

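The genes described here mark the blood vessels and the connective tissue of the pancreatic islet. The set holds 32 genes of 55421 counted, chosen by name. Of these, 19 mark endothelial cells, which line vessels, 9 mark mural cells (pericytes and smooth muscle, which wrap vessels), and 4 (Dcn, Lum, Thy1 and Sparc) mark fibroblasts. Collagens were left out of the set. All 32 symbols matched 1 Ensembl gene each, and all 32 passed the filter on low counts. The counts came from bulk RNA-seq of islets from wild-type (WT) C57BL/6 mice, in 3 libraries of a vehicle group and 3 of a group given the ligand insB:9-23. The ligand's name is that of an insulin B-chain peptide, well known as an antigen in autoimmune diabetes. The study's title asks on which islet genes and pathways the ligand acts. The labels used here do not give the dose, route, duration or age, nor whether mice or isolated islets received the ligand. They also do not say whether replicates were separate animals or pools, so each p-value reflects library-to-library spread that may be only technical.

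Islets are threaded by a dense net of fenestrated capillaries, whose endothelial cells carry thin pores that let hormones into the blood. Beta cells secrete the growth factor VEGF-A, which the endothelial receptor VEGFR2 (Kdr) senses, and the endothelium in turn lays down basement membrane on which beta cells rest. Pericytes sit on the capillaries and are held there by PDGF-B from the endothelium acting on its receptor Pdgfrb. Fibroblasts and the smooth muscle of arterioles lie mostly around the islet. In bulk libraries fewer cells of a type and less RNA per cell cannot be told apart.

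Total counts lay between 52052808 and 58880189 per library. CPM below are counts scaled to the library sizes after TMM normalisation, on which 3 counts equal 0.0475 to 0.0655 CPM. Of islet markers, those of beta and alpha cells took 9.47% to 13.7% and 1.45% to 2.60% of counts. Mafa, a beta cell factor with a single exon, had 0 counts in all 6 libraries. Exocrine RNA was plentiful, with acinar markers and amylases together at 23.8% to 27.7% of counts in the vehicle libraries and at 29.4%, 26.4% and 40.4% in insB:9-23 replicates 1 to 3. B and plasma cell markers summed to 61.6 CPM in insB:9-23 replicate 2 and to 6.71 to 12.4 CPM in the other libraries. T and NK cell markers summed to 18.7 CPM in that library and to 1.92 to 4.27 CPM elsewhere. So insB:9-23 replicate 3 stood apart by its exocrine share and replicate 2 by its lymphocyte markers.

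Plvap, Esm1 and Rgs5 had the highest levels per kilobase of exon among the 32 genes in the vehicle group, and Vwf, Sox17 and Cldn5 the lowest. Levels between genes are given as RPKM, which is CPM per kilobase of exon. Plvap, the protein of the fenestral diaphragm, was at 37.1 ± 13.2 RPKM (SD, n = 3) in the vehicle group, and Esm1, a proteoglycan that VEGF induces in endothelium, was at 29.1 ± 1.48 RPKM. Next came Rgs5, a G protein regulator of pericytes, at 23.4 ± 1.63 RPKM, Kdr at 17.3 ± 1.33 RPKM and Sparc, a secreted matrix protein of fibroblasts and endothelium, at 13 ± 2.91 RPKM. The vehicle ranges of Plvap and Esm1 overlapped, while Esm1, Rgs5, Kdr and Sparc each lay wholly above the next gene in the order. From Eng (7.85 ± 1.44 RPKM) down to Tie1 (4.86 ± 0.193 RPKM) the ranges of neighbours overlapped at every step. The 3 lowest were Cldn5, a tight junction claudin abundant in the blood-brain barrier, at 0.196 ± 0.183 RPKM, Sox17, an arterial transcription factor, at 0.154 ± 0.0580 RPKM, and Vwf, the clotting protein stored mainly by endothelium of larger vessels, at 0.0710 ± 0.0178 RPKM. Plvap and Esm1 also held the top 2 ranks in the insB:9-23 group, at 35.4 ± 8.81 and 31.6 ± 2.29 RPKM. Exon length is the union over all annotated transcripts, which lowers the RPKM of genes with long rare exons.

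**Figure D1:**
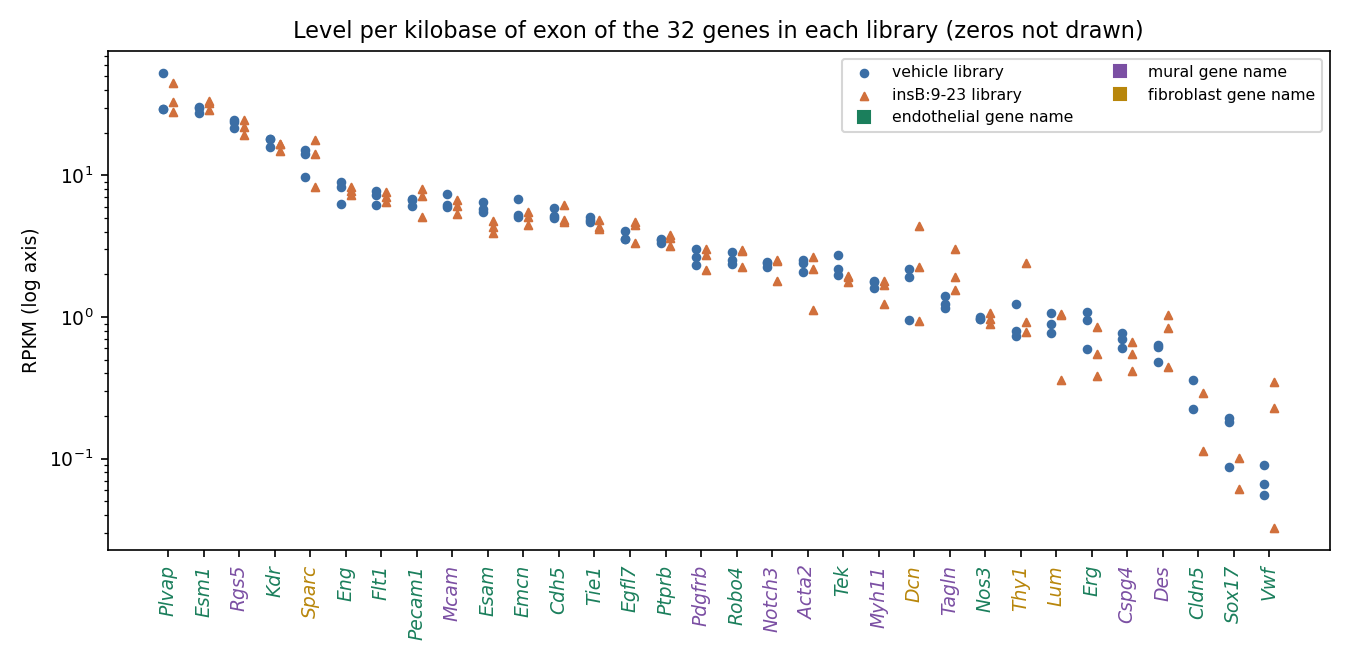
Levels of the 32 genes in RPKM (log axis), ordered by the vehicle mean, with each vehicle library a circle and each insB:9-23 library a triangle. The order runs from Plvap, Esm1, Rgs5 and Kdr down to Cldn5, Sox17 and Vwf, and the insB:9-23 points of Vwf and Dcn span 10.6-fold and 4.70-fold. Values of 0 are not drawn.

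Between the groups, none of the 32 genes passed the edgeR test at an adjusted p of 0.05, against 0.0823% of all 17016 genes tested (0.0294% higher and 0.0529% lower). The smallest edgeR adjusted p among them was 0.88. At an unadjusted p below 0.05 there were 2 of the 32, Esam on the lower side and Tagln on the higher, against 5.55% of all genes (2.74% higher and 2.81% lower). DESeq2 and limma-voom also called 0 of the 32, with 2 at an unadjusted p below 0.05 in each. Over all 17016 genes, 1116 and 1045 had such a p with these tools. The vehicle and insB:9-23 libraries did not overlap for 3 of the 32 (Esam and Tek lower, Tagln higher), against 13.5% of all genes (6.4% higher and 7.12% lower). The median log2 fold of insB:9-23 over vehicle was -0.025 for the 19 endothelial genes, -0.094 for the 9 mural genes and 0.30 for the 4 fibroblast genes, beside 0.0087 over all genes. Below 0 were 13 endothelial, 7 mural and 1 fibroblast gene, or 21 of 32, against 48.5% of all genes, and the other 11 were above 0, against 51.5%. None of the 16 other settings brought a call for a member, and the smallest adjusted p under any of them was 0.17 (Esam with DESeq2). With the acinar level as a covariate, 6 of the 32 had an unadjusted edgeR p below 0.05, against 843 of 17016 genes. Without insB:9-23 replicate 3 it was 4 of the 32, against 860 of 17902 genes. The remaining settings gave 1 or 2 such members.

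**Figure D2:**
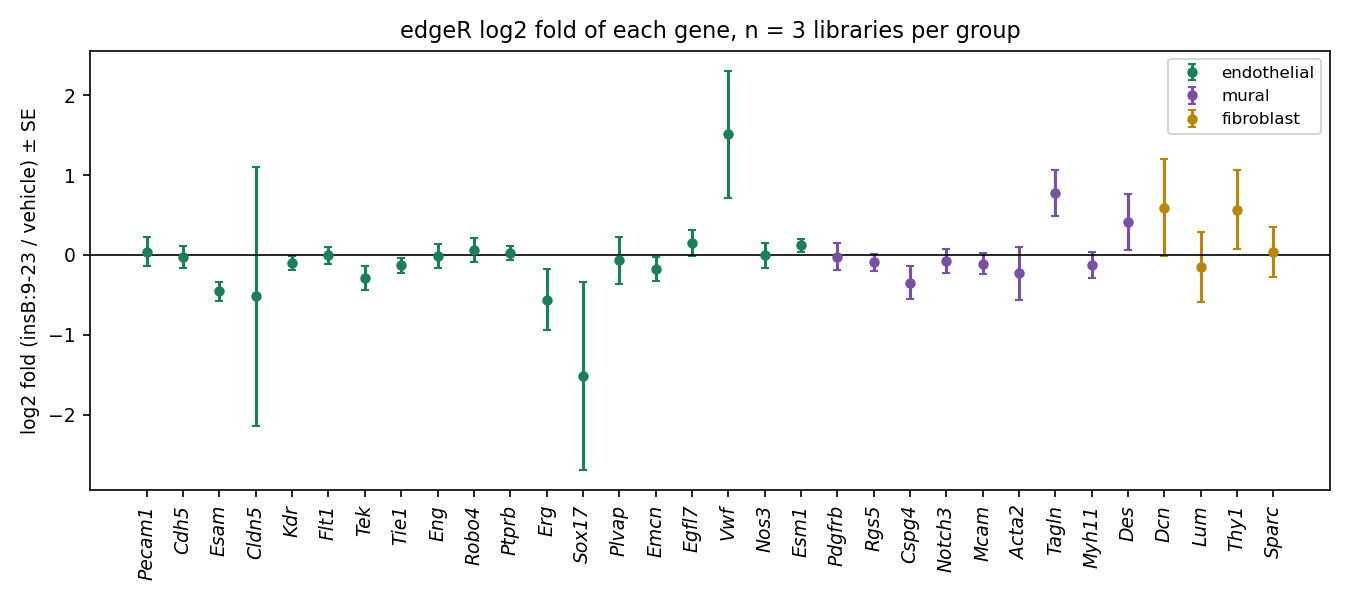
edgeR log2 fold (insB:9-23 over vehicle) of each gene with its standard error, for 3 libraries per group, coloured by cell type. Most abundant genes lie close to 0 with short bars, while Cldn5, Sox17 and Vwf have the longest bars, and Esam and Tagln are the 2 with an unadjusted p below 0.05.

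The junction genes of the endothelium overlapped between the groups for Pecam1 and Cdh5 and did not for Esam. Pecam1, the adhesion molecule CD31, was at 42.0, 37.7 and 42.3 CPM in vehicle replicates 1 to 3 and at 44.4, 49.8 and 31.5 CPM in insB:9-23 replicates 1 to 3. The insB:9-23 libraries lay on both sides of the vehicle range (log2 fold 0.043 ± 0.18, SE, edgeR adjusted p = 0.98). Cdh5, VE-cadherin of the adherens junction, was at 21.1, 21.6 and 24.6 CPM in the vehicle group and 25.9, 19.8 and 20.4 CPM after insB:9-23. The groups overlapped (log2 fold -0.025 ± 0.14, SE, edgeR adjusted p = 0.99).

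Esam, an immunoglobulin-type adhesion molecule of endothelial tight junctions, was at 18.5, 15.8 and 16.7 CPM in the vehicle libraries and at 12.3, 11.3 and 13.6 CPM in the insB:9-23 libraries. Every insB:9-23 library lay below every vehicle library. The log2 fold was -0.46 ± 0.12 (SE, unadjusted p = 0.0089, edgeR adjusted p = 0.88), so the difference did not pass over all genes. With single libraries left out the fold lay between -0.52 and -0.39, and it was -0.54 with the acinar level as a covariate. On GRCm38 with the GENCODE M21 annotation, Esam lies on chromosome 9 (37528078 to 37538319, plus strand) and overlaps no other annotated gene.

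Cldn5 had few counts in every library. The vehicle libraries held 0, 32 and 17 Cldn5 counts, and the libraries with ligand held 24, 9 and 0. A count of 0 allows up to 0.0475 CPM in vehicle replicate 1 and 0.0655 CPM in insB:9-23 replicate 3, by counting error only. Cldn5 has only 1 exon and never reached 5 CPM. Of the 123 protein-coding genes without introns whose top library was at 5 CPM or above, 95 had a library with 0 counts, and among genes with several exons this held for 57 of 10681. Clec14a, another endothelial gene with a single exon, chosen after its values were seen, had 0 counts in vehicle replicate 3 and insB:9-23 replicate 2 and 548 to 912 counts in the others. How such zeros arose was not tested, and the Cldn5 level per kilobase given above includes such a zero.

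None of the 7 endothelial receptors passed the test, and all but Tek overlapped between the groups. Kdr, the main VEGF-A receptor, was at 163, 142 and 162 CPM in the vehicle group and 151, 151 and 134 CPM after insB:9-23. The groups overlapped, with a log2 fold of -0.10 ± 0.086 (SE, edgeR adjusted p = 0.90). Flt1, the decoy-like receptor VEGFR1, was at 83.8, 104 and 98.5 CPM in the vehicle group and 103, 87.6 and 94.7 CPM after the ligand. Its insB:9-23 values lay within the vehicle range, with a log2 fold of -0.0040 ± 0.11 (SE, edgeR adjusted p = 0.996). Of the angiopoietin receptors, Tek (TIE2) was at 10.4, 9.34 and 12.9 CPM in the vehicle group and 9.08, 9.20 and 8.37 CPM after insB:9-23. The groups did not overlap, but by a narrow gap, and the fold missed the test (-0.29 ± 0.15, SE, edgeR adjusted p = 0.88). Tie1, its partner receptor, was at 24.9, 23.8 and 23.0 CPM in the vehicle group and 23.7, 21.3 and 20.5 CPM after the ligand. Ptprb, the phosphatase VE-PTP that restrains TIE2, was at 44.5 to 47.8 CPM in the vehicle group and 42.2 to 50.5 CPM after insB:9-23. Eng, the TGF-beta co-receptor endoglin, was at 33.6, 36.5 and 25.3 CPM in vehicle, and the insB:9-23 libraries lay inside that range at 29.5, 33.5 and 31.1 CPM. Fpgs lies on the opposite strand over part of Eng and was at 12.9 to 21.2 CPM. The library kit was stranded, but the strand setting of the counting is not given. Whether Fpgs reads entered the Eng count is therefore not known. Robo4, a guidance receptor that stabilises vessels, was at 12.7 to 15.3 CPM in the vehicle group and 12 to 15.9 CPM after the ligand. The 5 genes of this paragraph that lay lowest in insB:9-23 replicate 3 were Kdr, Tek, Tie1, Robo4 and Ptprb.

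ETS-family factors such as Erg bind a GGAA core in many endothelial promoters, so the start regions of members were read from RefSeq on GRCm38.p6. Entries were found for 18 of the 32 genes, and the entry nearest to the GENCODE start was used. The 6-base run AGGAAG, on either strand within 250 bases before the start, was in 6 of the 11 endothelial promoters (Flt1, Tie1, Eng, Robo4, Emcn and Egfl7) and in 0 of the 7 mural and fibroblast promoters, against 29.5% of all 32851 promoters. CCGGAA was in Kdr alone, against 12% of all promoters. An exact match to the CArG box of smooth muscle genes was in none of the 18, against 1.47%. The CArG box was searched only as CC, then 6 letters A or T, then GG, and all motifs on both strands. A CArG box with another letter in its middle cannot match, so a looser one may be present. Of the contractile genes, Acta2 and Des had an entry and Tagln and Myh11 did not. The motifs were chosen with the data known, and a match is a run of letters, not a shown binding site. The last 180 bases before the start are printed for the 3 endothelial genes with exactly 2 matches, and for Rgs5, the most abundant mural gene, which had none. Flt1 is on the minus strand (chr5:147726012-147726191), and Eng (chr2:32646415-32646594), Emcn (chr3:137340898-137341077) and Rgs5 (chr1:169655321-169655500) are on the plus strand. Capitals mark AGGAAG or its reverse complement.
Flt1: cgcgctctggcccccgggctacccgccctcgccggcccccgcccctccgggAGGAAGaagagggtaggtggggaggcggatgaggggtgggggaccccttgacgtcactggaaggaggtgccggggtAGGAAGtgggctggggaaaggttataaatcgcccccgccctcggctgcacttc
Eng: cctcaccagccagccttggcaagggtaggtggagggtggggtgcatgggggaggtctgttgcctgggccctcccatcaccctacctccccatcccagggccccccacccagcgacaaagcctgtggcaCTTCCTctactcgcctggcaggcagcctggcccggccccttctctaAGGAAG
Emcn: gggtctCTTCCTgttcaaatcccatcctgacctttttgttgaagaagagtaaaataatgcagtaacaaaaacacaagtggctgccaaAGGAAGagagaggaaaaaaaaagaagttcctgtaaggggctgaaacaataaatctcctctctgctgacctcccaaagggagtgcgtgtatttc
Rgs5: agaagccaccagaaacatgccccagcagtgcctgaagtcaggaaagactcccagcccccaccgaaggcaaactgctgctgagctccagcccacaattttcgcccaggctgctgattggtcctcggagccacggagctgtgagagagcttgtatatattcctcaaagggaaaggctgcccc

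The transcription factors of the set were low and variable. Erg, an ETS factor that maintains endothelial identity, was at 3.28, 2.07 and 3.77 CPM in the vehicle group and 2.94, 1.90 and 1.33 CPM after insB:9-23. The groups overlapped (log2 fold -0.56 ± 0.38, SE, edgeR adjusted p = 0.89). For Sox17 the counts were 55, 26 and 49 with vehicle and 17, 0 and 22 with the ligand. The replicate with 0 counts allows up to 0.0534 CPM, while the vehicle libraries lay between 0.417 and 0.918 CPM. The log2 fold of -1.52 ± 1.18 (SE, edgeR adjusted p = 0.90) missed the test, and the groups overlapped at 0.417 and 0.481 CPM. It was -0.93 without insB:9-23 replicate 2, the library at 0, and -2.31 without insB:9-23 replicate 3 (adjusted p = 0.80 and 0.96).

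Among surface, secreted and enzyme genes, the groups overlapped for every member, and Vwf had the widest spread. Plvap was at 58.6, 58.5 and 104 CPM in the vehicle group and 65.8, 55.5 and 89.6 CPM after insB:9-23. One library in each group, vehicle replicate 3 and insB:9-23 replicate 3, stood above the rest, so the spread within groups exceeded the difference between them (log2 fold -0.068 ± 0.30, SE, edgeR adjusted p = 0.98). Gtpbp3, on the opposite strand over part of Plvap, was at 11 to 14.9 CPM. Esm1 was at 62.5, 57.5 and 63.2 CPM in the vehicle group and 70.1, 68.1 and 60.9 CPM after the ligand (log2 fold 0.12 ± 0.082, SE, edgeR adjusted p = 0.89). Emcn, the sialomucin endomucin of capillaries and veins, was at 36.6, 27.5 and 28.2 CPM in the vehicle group and 30.0, 27.5 and 23.9 CPM after insB:9-23. Nos3, endothelial nitric oxide synthase, was at 4.13, 3.97 and 4.03 CPM in the vehicle group and 3.69, 4.41 and 4.00 CPM after the ligand. Egfl7, a secreted protein of growing vessels, was at 14.6, 12.7 and 12.8 CPM in the vehicle group and 15.9, 16.7 and 11.9 CPM after insB:9-23. These 3 genes overlapped between the groups. Agpat2, on the opposite strand over part of Egfl7, was highest in the same library as Egfl7, at 11.1 CPM in insB:9-23 replicate 2 against 6.78 to 9.78 CPM elsewhere.

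The counts of Vwf were 92, 56 and 57 with vehicle and 326, 206 and 24 with the ligand. In CPM these were 1.46, 0.897 and 1.07, then 5.57, 3.66 and 0.524. So 2 insB:9-23 libraries lay above all vehicle libraries and the third below all of them, a range of 10.6-fold within the group against 1.62-fold in the vehicle group. The log2 fold was 1.51 ± 0.80 (SE, edgeR adjusted p = 0.88). It was 2.02 without insB:9-23 replicate 3 (adjusted p = 0.40) and 0.88 without replicate 1 (adjusted p = 0.89). Selp, encoding P-selectin, which is stored with Vwf in endothelial granules, was chosen after its values were seen. It was at 0.127, 0.0481 and 0.150 CPM in the vehicle group and at 0.717, 1.19 and 0 CPM in insB:9-23 replicates 1 to 3, the libraries in which Vwf was high and low. Selp did not pass the filter on low counts and was not tested.

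No pericyte gene passed the test, and all 5 folds were below 0. Rgs5 was at 109, 98.0 and 112 CPM in the vehicle group and 100.2, 112 and 86.9 CPM after insB:9-23 (log2 fold -0.094 ± 0.11, SE, edgeR adjusted p = 0.93). Pdgfrb, the PDGF-B receptor, was at 14.5, 16.7 and 12.7 CPM in the vehicle group and 16.5, 15.1 and 11.7 CPM after the ligand. Notch3, the Notch receptor of mural cells, was at 19.6, 19.8 and 18.1 CPM in the vehicle group and at 20.3, 14.4 and 20.0 CPM after insB:9-23. In Notch3 replicate 2 alone stood low, whereas in Rgs5 and Pdgfrb replicate 3 was the lowest. Mcam, the adhesion molecule CD146 of mural and endothelial cells, was at 24.7, 20.0 and 20.7 CPM in the vehicle group and 20.4, 22.3 and 17.9 CPM after the ligand. Cspg4, the pericyte proteoglycan NG2, was at 9.25, 8.30 and 7.27 CPM in the vehicle group and 6.59, 5.0 and 7.91 CPM after insB:9-23. Its fold had the largest size of the 5 (-0.35 ± 0.21, SE, edgeR adjusted p = 0.88), and the groups overlapped.

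Among the 4 contractile genes of mural cells, 2 folds were above 0 and 2 below, and none passed the test. Tagln, the actin-binding protein SM22, was at 2.30, 2.47 and 2.79 CPM in the vehicle group and 3.79, 6.03 and 3.08 CPM after insB:9-23. Every insB:9-23 library lay above every vehicle library, with replicate 2 far above the other two (log2 fold 0.77 ± 0.29, SE, unadjusted p = 0.037, edgeR adjusted p = 0.88). Without replicate 2 the fold was 0.45 (adjusted p = 0.77). Pcsk7, a protein-coding gene on the opposite strand over part of Tagln, was more abundant, at 16.2 to 18.5 CPM in the vehicle group and 19.5 to 21.1 CPM after insB:9-23, and also highest in replicate 2. An antisense transcript, Gm48529, also overlaps Tagln, with at most 101 counts. The strand setting is not given, so the share of Pcsk7 reads in the Tagln count was not tested. Des, the filament protein desmin, was at 1.82, 2.39 and 2.32 CPM in the vehicle group and 3.14, 3.90 and 1.66 CPM after the ligand. As for Vwf, replicates 1 and 2 lay above the vehicle range and replicate 3 below it. Acta2, smooth muscle actin, was at 5.54, 4.55 and 5.25 CPM in the vehicle group and 5.84, 4.80 and 2.45 CPM after insB:9-23. Myh11, smooth muscle myosin, was at 13.3, 12.2 and 13.6 CPM in the vehicle group and 12.8, 13.6 and 9.39 CPM after insB:9-23. For Acta2 and Myh11 only replicate 3 left the vehicle range by more than 0.5 CPM, on the low side (log2 folds -0.23 ± 0.33 and -0.13 ± 0.16, SE, edgeR adjusted p = 0.94 and 0.93).

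No fibroblast gene passed the test, and all 4 had a larger coefficient of variation in the insB:9-23 group than in the vehicle group. Dcn, the matrix proteoglycan decorin, was at 12.7, 5.55 and 11.2 CPM in the vehicle group and 13.2, 25.7 and 5.46 CPM after insB:9-23. Replicate 2 was the highest and replicate 3 the lowest of all 6 libraries, a range of 4.70-fold within the group (log2 fold 0.59 ± 0.60, SE, edgeR adjusted p = 0.91). Thy1, the surface protein CD90, which mouse T cells carry too, was at 2.41, 3.72 and 2.19 CPM in the vehicle group and 2.77, 7.19 and 2.36 CPM after the ligand. Replicate 2 alone stood out. Lum, the related proteoglycan lumican, was at 2.60, 1.88 and 2.17 CPM in the vehicle group and 2.53, 2.56 and 0.874 CPM after insB:9-23, so here replicate 3 alone stood out, on the low side. Sparc was at 36.7, 53.6 and 57.5 CPM in the vehicle group and 31.2, 67.0 and 53.5 CPM after insB:9-23 (log2 fold 0.038 ± 0.32, SE, edgeR adjusted p = 0.99). The median fold of the 4 genes was 0.30 with all libraries and -0.17 without insB:9-23 replicate 2. Lymphocyte markers (B and plasma cells, T and NK cells) were also highest in that library, and their part in the Dcn, Thy1 and Tagln values was not tested. Macrophage markers summed to 163 CPM there, against 78.5 to 108 CPM in the other libraries.

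**Figure D3:**
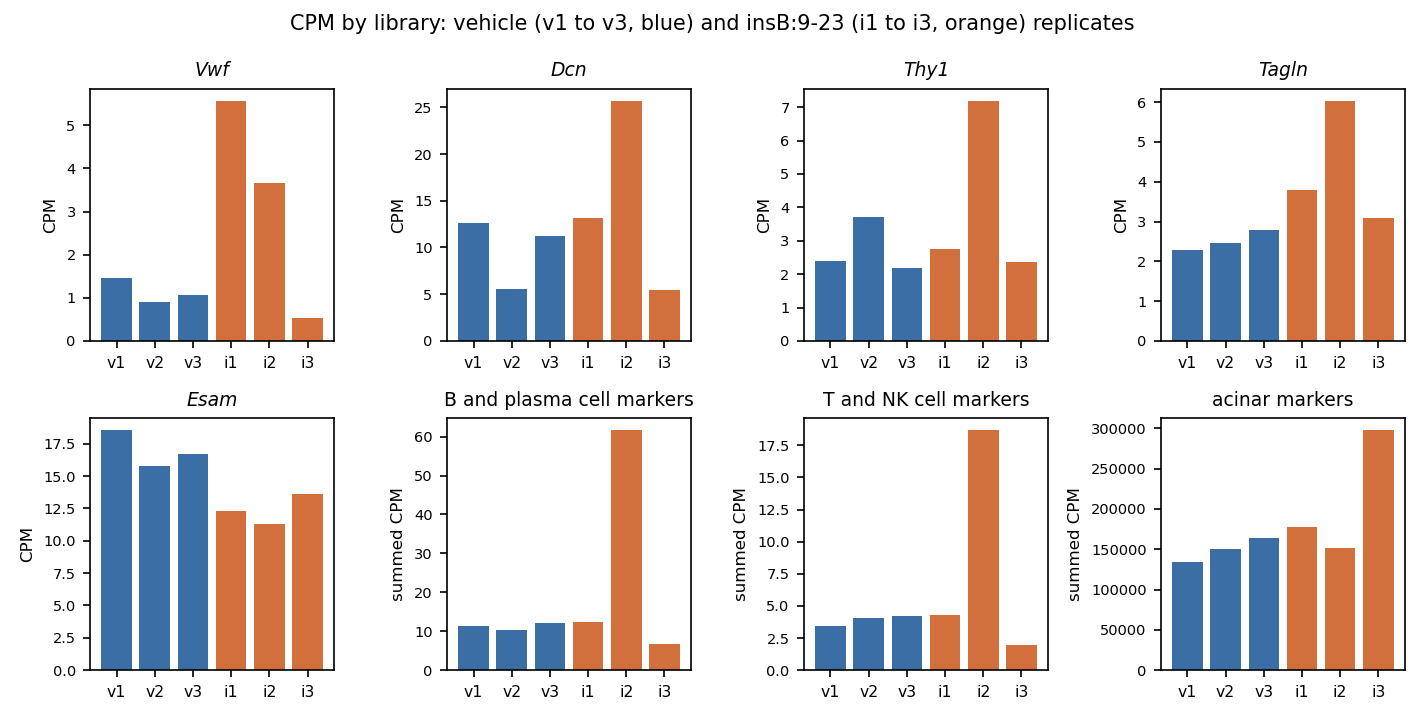
CPM by library of Vwf, Dcn, Thy1, Tagln and Esam, and summed CPM of markers of B and plasma cells, of T and NK cells and of acinar cells, with vehicle replicates v1 to v3 and insB:9-23 replicates i1 to i3 as bars. Dcn, Thy1 and Tagln are highest in i2, as are both lymphocyte sums (61.6 and 18.7 CPM), Vwf is high in i1 and i2, Esam is lower in all 3 insB:9-23 libraries, and the acinar sum is highest in i3.

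The balance of endothelial to mural genes within a library differed between the groups by less than its spread. For each library the log2(CPM + 0.5) values of a gene group were averaged, and the mural mean was taken from the endothelial mean. The difference was 0.44, 0.40 and 0.52 in vehicle replicates 1 to 3 (0.45 ± 0.065, SD, n = 3) and 0.44, 0.29 and 0.47 in insB:9-23 replicates 1 to 3 (0.40 ± 0.098, SD, n = 3). The group means differed by -0.055, less than the spread within either group, and by 0.0010 without insB:9-23 replicate 2. As summed RPKM, the endothelial genes stood at 3.18, 3.30 and 3.72 times the mural genes in vehicle and at 3.43, 3.00 and 4.08 times after insB:9-23. On this scale the group difference turned to 0.036 in log2. Such sums weigh abundant genes most. In insB:9-23 replicate 3, Plvap gave 45.1 and Esm1 29.1 of 139 endothelial RPKM, and Rgs5 gave 19.1 of 34.1 mural RPKM. The endothelial minus fibroblast difference was 0.97, 0.99 and 0.98 in vehicle (0.98 ± 0.011, SD, n = 3) and 1.06, 0.086 and 1.17 after insB:9-23 (0.77 ± 0.60, SD, n = 3). On this scale of mean log2 levels the 3 vehicle libraries were nearly equal. Of the insB:9-23 libraries, replicate 2 lay far below the vehicle range and replicates 1 and 3 lay above it. The mean difference of -0.21 became 0.13 without replicate 2. As summed RPKM, the endothelial genes stood at 9.95, 7.58 and 8.40 times the fibroblast genes in vehicle. After insB:9-23 they stood at 11.4, 5.21 and 8.57 times. Most of the fibroblast sum was Sparc, which endothelium makes too. It gave 9.69 to 15.2 of 13.7 to 18.7 RPKM in vehicle and 8.23 to 17.7 of 12.4 to 25.5 RPKM after insB:9-23. On that second scale the vehicle libraries were less alike, and insB:9-23 replicate 3 lay inside their range. No test was made on these means over genes or on these ratios.

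**Figure D4:**
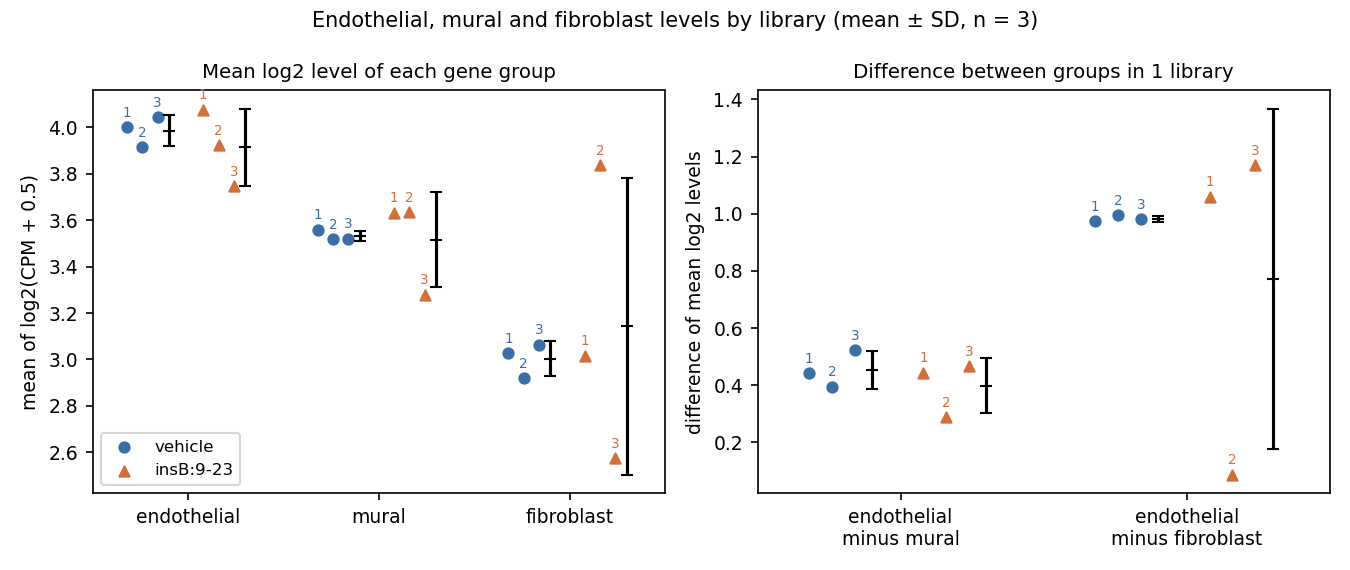
Mean log2(CPM + 0.5) of the 19 endothelial, 9 mural and 4 fibroblast genes (left) and their difference within a library (right), with 1 numbered point per library and black bars for the mean ± SD of 3 libraries. Endothelial minus mural spans 0.40 to 0.52 in vehicle and 0.29 to 0.47 after insB:9-23, and endothelial minus fibroblast spans 0.97 to 0.99 and 0.086 to 1.17.

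Members were most often lowest in 1 insB:9-23 library and varied more in that group. The lowest of the 6 CPM values was in insB:9-23 replicate 3 for 18 of the 32 genes (10 endothelial, 6 mural and 2 fibroblast), against 18.7% of all genes tested. For none of the 32 was the highest value there, against 19.8% of all genes. Several lists of other cell types also lay low there. Replicate 3 was lowest for 5 of 5 tested erythrocyte, 5 of 8 T and NK cell and 4 of 8 macrophage markers. It was lowest for 4 of 7 alpha cell and 4 of 9 beta cell markers. Among other fibroblast, endothelial and pericyte markers the numbers were 9 of 15, 7 of 23 and 3 of 10. For acinar, duct and Schwann cell markers they were 0 of 16, 0 of 8 and 1 of 5. Over the 30 members with counts in every library, the median log2 ratio to the vehicle mean was 0.039 in replicate 1, 0.062 in replicate 2 and -0.23 in replicate 3, where 26 of 30 lay below the vehicle mean. Over all genes with counts in every library it was 0.0070, -0.0010 and -0.0020. The coefficient of variation was larger in the insB:9-23 group for 25 of the 32 genes, against 55.8% of all genes. It was also larger there for 16 of 16 acinar and 7 of 8 duct markers. For T and NK cell markers and for B and plasma cell markers the numbers were 8 of 8 and 6 of 6. For beta, alpha and Schwann cell markers they were 6 of 9, 5 of 7 and 1 of 5. Replicate 3 also had the highest acinar share (40.4% with amylases), and its part in these values was not tested. Endothelial genes took 0.0693%, 0.0651% and 0.0700% of counts in vehicle and 0.0661%, 0.0653% and 0.0484% after insB:9-23. With acinar markers and amylases taken out of the total, the endothelial share was 0.0910%, 0.0885% and 0.0969% in vehicle and 0.0937%, 0.0888% and 0.0812% after insB:9-23. On that second scale replicate 3 was still the lowest, but its gap to vehicle replicate 2 was smaller. The mural share outside acinar genes was 0.0266% to 0.0283% in vehicle and 0.0269%, 0.0280% and 0.0218% after insB:9-23.

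**Figure D5:**
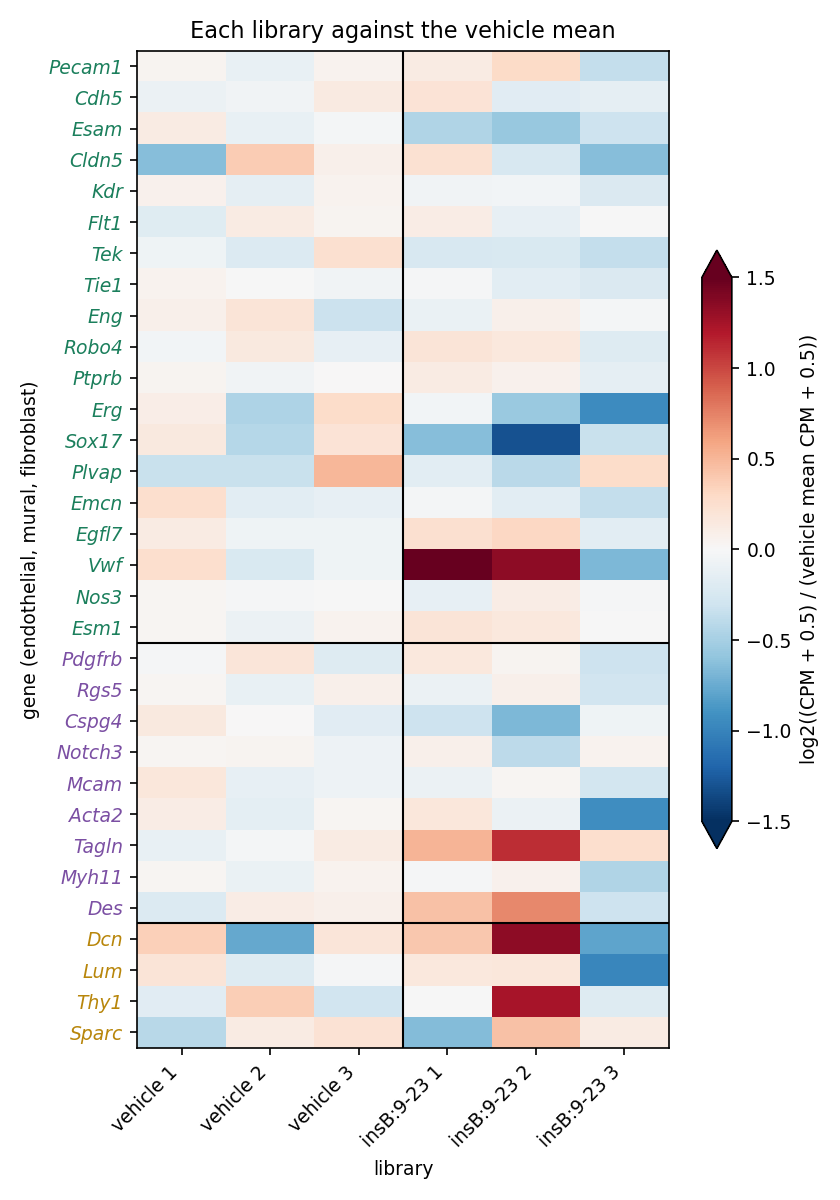
Each gene (rows, grouped as endothelial, mural and fibroblast) in each library (columns) as log2 of CPM + 0.5 over the vehicle mean CPM + 0.5, with red above and blue below. The column of insB:9-23 replicate 3 is mostly blue (26 of the 30 members with counts in every library lie below the vehicle mean), and Vwf, Tagln, Des, Dcn and Thy1 are reddest in insB:9-23 replicates 1 or 2.

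Other vessel genes were read from 11 lists of signalling pathways and further markers. They held 125 genes that are not members, of which 115 were tested, 0 passed the edgeR test, and 7 had an unadjusted p below 0.05 (5 higher and 2 lower), against 5.55% of all genes. DESeq2 and limma-voom also called 0 of the 115, with 9 and 7 at an unadjusted p below 0.05. Over all 17016 genes tested, these tools gave 1116 and 1045 such genes. The groups did not overlap for 10 of the 115 on the higher side and 4 on the lower. Over all genes these shares were 6.4% and 7.12%. Most genes named below were picked for the smallest p of their list, a choice that favours groups without overlap. The counts for each list below include any members it holds. In the VEGF list 8 of 12 folds were below 0 (median -0.026). Dll4, the Notch ligand of sprouting endothelium, was at 20.8, 19.8 and 18.4 CPM in the vehicle group and 16.5, 14.7 and 17.4 CPM after insB:9-23, all below the vehicle libraries (log2 fold -0.28 ± 0.11, SE, unadjusted p = 0.037, edgeR adjusted p = 0.88). Vegfc, a lymphatic growth factor, was at 2.38 ± 0.207 and 1.90 ± 0.445 CPM (SD, n = 3). In the Notch list 9 of 13 folds were below 0 (median -0.073). Hey2, a Notch target of arterial endothelium, was at 3.15, 3.13 and 3.77 CPM in the vehicle group and 1.72, 2.51 and 1.73 CPM after the ligand. The groups did not overlap (log2 fold -0.75 ± 0.23, SE, unadjusted p = 0.018, edgeR adjusted p = 0.88). The related genes Hes1, Hey1 and Heyl of this list, chosen after their values were seen, did not share that fold. Their log2 folds were 0.54, 0.081 and -0.022 (edgeR adjusted p = 0.91, 0.98 and 0.99). In the angiopoietin list 4 of 7 folds were above 0 (median 0.023). Angpt1, the TIE2 agonist made by mural cells, was at 1.95, 2.84 and 1.89 CPM in the vehicle group and 2.97, 3.66 and 3.67 CPM after insB:9-23, while its receptor Tek lay lower (Angpt1 log2 fold 0.63 ± 0.24, SE, unadjusted p = 0.040, edgeR adjusted p = 0.88).

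All 6 tested folds of the PDGF list were below 0 (median -0.099) with none at an unadjusted p below 0.05. Pdgfb, the ligand from endothelium, was at 9.34 ± 0.667 and 8.72 ± 1.69 CPM, and Pdgfra, the receptor of fibroblasts, at 1.89 ± 0.540 and 1.13 ± 0.944 CPM (SD, n = 3). In the endoglin and BMP list 6 of 11 folds were below 0 (median -0.019). Id3, a BMP target, was at 8.98 ± 0.0947 and 11.1 ± 1.51 CPM, and Smad6, an inhibitor of that pathway, at 3.69 ± 0.462 and 2.90 ± 0.317 CPM. The groups did not overlap for either, and both had an unadjusted p above 0.05 (0.063 and 0.12 and edgeR adjusted p = 0.88 for each). In the S1P and ephrin list 8 of 11 folds were above 0 (median 0.23). S1pr2, a sphingosine-1-phosphate receptor, was at 0.649, 0.914 and 0.806 CPM in the vehicle group and 1.32, 1.28 and 1.36 CPM after insB:9-23 (log2 fold 0.74 ± 0.27, SE, unadjusted p = 0.033, edgeR adjusted p = 0.88). Spns2, the sphingosine-1-phosphate exporter, was at 10.2 ± 0.754 and 12.4 ± 1.37 CPM.

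Of the summed endothelial activation genes, insB:9-23 replicate 2 held 48.9 CPM and the other libraries 14.4 to 21.6 CPM. Without Thbd and Vcam1, a choice made after their values were seen, replicate 2 held 21.5 CPM and the others 13.8 to 20.3 CPM, so these 2 genes made up most of the gap. Vcam1, an adhesion molecule for leukocytes, was at 1.35, 0.545 and 1.39 CPM in the vehicle group and 0.598, 9.46 and 0.634 CPM after the ligand, so only replicate 2 was high (log2 fold 1.71 ± 1.20, SE, edgeR adjusted p = 0.89). Thbd, the single-exon gene of thrombomodulin, chosen after its values were seen, had 1010 counts in insB:9-23 replicate 2 and 0 in the other 5 libraries. Zeros were common among genes with a single exon, as given above for Cldn5. How the Thbd zeros arose was not tested, so they are not read as absence of its RNA. Of 8 tested genes of this list 6 had folds above 0 (median 0.27).

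Among other endothelial markers 13 of 23 folds were below 0 (median -0.049). Ets1, an ETS factor of endothelium and lymphocytes, was at 11.9, 10.9 and 8.90 CPM in the vehicle group and 17.6, 23.0 and 13.4 CPM after insB:9-23. Every insB:9-23 library was above every vehicle library, with replicate 2 the highest (log2 fold 0.77 ± 0.23, SE, unadjusted p = 0.015, edgeR adjusted p = 0.88). Fli1, a related ETS factor also made by blood cells, was at 2.03 ± 0.280 and 2.83 ± 0.806 CPM (SD, n = 3), and it too was highest in replicate 2. The lymphocyte sums were highest in that library, and their part in the Ets1 and Fli1 values was not tested. In the smooth muscle list 7 of 13 folds were above 0 (median 0.037), and beside Tagln the smallest p was that of Lmod1, an actin nucleator of smooth muscle, at 0.602, 0.609 and 0.375 CPM in the vehicle group and 1.30, 1.21 and 0.961 CPM after insB:9-23 (log2 fold 1.13 ± 0.34, SE, unadjusted p = 0.016, edgeR adjusted p = 0.88). Among other pericyte markers 6 of 10 folds were above 0 (median 0.13). Vtn, which encodes vitronectin, was at 22.6 ± 2.82 and 30.8 ± 6.75 CPM, and Higd1b, a pericyte gene, at 0.640 ± 0.613 and 0.207 ± 0.0937 CPM (SD, n = 3). Only vehicle replicate 2 was high for Higd1b, at 1.35 CPM against 0.238 and 0.337 CPM in vehicle replicates 1 and 3. Among other fibroblast markers 11 of 15 folds were below 0 (median -0.15), opposite in sign to the median of the 4 member genes. Fap, an activated-fibroblast protease, was at 0.380, 0.240 and 0.225 CPM in the vehicle group and 0.888, 1.37 and 0.393 CPM after insB:9-23 (log2 fold 1.64 ± 0.57, SE, unadjusted p = 0.027, edgeR adjusted p = 0.88). Mfap4, a microfibril protein, was at 0.843 ± 0.137 and 0.399 ± 0.172 CPM (SD, n = 3).

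Markers of lymphatic endothelium summed to 91.5 to 104 CPM and differed widely in level. The single genes of this paragraph were chosen after their values were seen, apart from Upk1b. Of that list Pdpn lay at 0.197 to 0.506 CPM and Mmrn1 at 0 to 0.290 CPM. Lyve1, which macrophages also carry, was at 4.39 to 9.28 CPM, and Prox1, which islet endocrine cells express as well, at 69.5 to 80.3 CPM. Ccl21a, the lymphatic and lymph node chemokine, had 3.29 CPM in insB:9-23 replicate 2 and 0 to 0.222 CPM elsewhere, and its near-identical copies could share its reads. Of the mesothelial markers, Upk1b was at 0 in all libraries, Upk3b, Lrrn4 and Wt1 stayed at or below 0.480 CPM, and Msln was at 66.6 to 76.1 CPM. Quiescent stellate markers summed to 5.55 to 8.16 CPM, most of it Reln, with Gfap at 0.0641 to 0.285 CPM. Lrat had 80 counts (1.42 CPM) in insB:9-23 replicate 2, the library with the largest sum, and 0 in every other library.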

How the data were processed

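Per the file headers, each library's file holds the authors' raw counts of reads for every Ensembl gene. HISAT, featureCounts 1.5.0-p3, DESeq 1.8.3 and GRCm38 are listed in the submitters' processing notes, without roles. Islet RNA came from TRIzol extraction, and a KAPA stranded kit made the libraries, per the labels' protocols. Neither the annotation release nor the strand setting is given in the sources used here. Groups and replicate numbers came from the titles. GENCODE M21 (GRCm38) gave symbols for 55154 of 55421 IDs, exon lengths and coordinates.

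edgeR 4.0.16 (R 4.3.3) tested the 17016 genes kept by filterByExpr, using TMM factors and its robust quasi-likelihood F test. Adjustment was by Benjamini-Hochberg across these genes, and calls needed an adjusted p below 0.05. Standard errors are the log2 fold over the root of F. The fit was also run on simulated counts, and its outcome there is not given here. The 32 members, the lists and the rule for named genes (all members, and per pathway list any called gene or else the 2 with the smallest p, and of cell type lists only sums and markers at 0) were chosen with earlier results of these data known. Alternatives used DESeq2 1.42.0, limma-voom 3.58.1, other scalings, filters and designs, and each library left out in turn. A gene that the rule for named genes would pick is not reported here.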

Additional observations from a re-analysis of the deposited data

How the results depend on the processing

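The 3 libraries per group limit what could be called, and folds of genes below 1 CPM rest on few counts. None of the 32 genes was called under any of the 16 settings (30 could be tested with the filter of 1 CPM in 3 libraries), and 12 kept the sign of their fold under all of them, among them Esam, Tek, Vwf and Tagln.

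Over all genes, 14 were called, against 116 with DESeq2, 7 with the acinar level as a covariate, and 16 to 26 with single libraries left out (23 without vehicle replicate 1, 25 without insB:9-23 replicate 1 and 26 without insB:9-23 replicate 3). With the replicate number as a block 0 were called (605 at an unadjusted p below 0.05). Same-numbered libraries did not deviate together (correlations of -0.032, -0.069 and -0.0054 across genes), so the numbers were not taken as pairs. Scaled by totals only, the median fold was -0.15 over all genes, -0.172 for endothelial and -0.240 for mural genes. The endothelial median was 0.003 without insB:9-23 replicate 3, and the mural median 0.076 with the acinar covariate. The fibroblast median ranged from -0.166 to 0.524 with single libraries left out and fell below 0 without insB:9-23 replicate 2. The endothelial minus mural difference was 0.036 as a ratio of summed RPKM.

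The fold of 20 genes changed sign somewhere, in each case without passing the test, and the cause was not tested. By library totals alone these log2 folds were -0.080 for Pecam1, -0.069 for Robo4, -0.119 for Ptprb, -0.023 for Esm1 and -0.108 for Sparc. With library sizes without acinar genes Ptprb was at -0.005. With upper-quartile factors Flt1 and Nos3 were each at 0.007, and with a filter of 1 CPM in 3 libraries each at 0.002. With limma-voom Flt1 was at 0.001 and Sparc at -0.007, and with the replicate block Sparc was at -0.005. With the acinar covariate the folds were 0.22 for Cldn5, 0.045 for Eng, 0.030 for Nos3, 0.166 for Pdgfrb, 0.033 for Rgs5, 0.041 for Mcam, 0.178 for Acta2, 0.076 for Myh11 and 0.409 for Lum. With single libraries left out, ranges that crossed 0 were -0.099 to 0.215 for Pecam1, -0.154 to 0.046 for Cdh5, -1.725 to 0.28 for Cldn5, -0.090 to 0.063 for Flt1, -0.160 to 0.091 for Eng, -0.004 to 0.185 for Robo4, -0.029 to 0.097 for Ptprb, -0.277 to 0.264 for Plvap and -0.074 to 0.059 for Nos3. They were -0.122 to 0.112 for Pdgfrb, -0.154 to 0.070 for Notch3, -0.491 to 0.061 for Acta2, -0.229 to 0.024 for Myh11, -0.072 to 0.991 for Dcn, -0.378 to 0.203 for Lum, -0.114 to 0.845 for Thy1 and -0.218 to 0.294 for Sparc.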
